A study of Mus musculus with 8 samples.

Results

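Retinoid handling in the hippocampus was followed through 9 genes: Aldh1a1, Aldh1a2 and Aldh1a3 for synthesis, Rbp4, Stra6 and Crabp2 for transport and binding, Rarb as a receptor, Cyp26b1 for breakdown, and Ptgds. They were taken by gene symbol from a table of 25834 genes, and all 9 were found there. RNA was sequenced from the hippocampi of male mice, 4 control and 4 SAP97-cKO, with 1 library per mouse. The table holds 37388177 to 37416649 counts per control library and 37391907 to 37426572 per SAP97-cKO library.

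SAP97-cKO mice carried Nestin-cre and a floxed SAP97 gene on both alleles. Nestin-cre recombines in neural progenitors and the cells they give rise to, so glia of that origin can carry the deletion as well. The paper describes the knockout as targeted to neurons and also as specific to the brain. Controls were littermates of several kinds: carriers of Nestin-cre without the floxed pair, floxed mice without Cre, and wild-type mice. The sources used here do not say which control library came from which of these genotypes or how old the sequenced mice were. An effect of Cre itself cannot be told apart from that of the deletion for any control library that lacked Cre.

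Retinoic acid is made from vitamin A in steps: retinol is oxidized to retinaldehyde, and retinaldehyde dehydrogenases of the Aldh1a family oxidize that to retinoic acid, which enters the nucleus and acts on retinoic acid receptors until Cyp26 enzymes degrade it. In the brain the meninges, the membranes that wrap it, are a known source of retinoic acid and express Aldh1a2. Ptgds, a lipocalin that makes prostaglandin D2 and also binds retinoids, is abundant in meninges and is also made by choroid plexus and oligodendrocytes.

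The targeted gene was examined first. Dlg1 (ENSMUSG00000022770), the mouse gene for SAP97, had 110, 122, 107 and 125 CPM (reads relative to the library total, scaled by the TMM method) in control replicates 1 to 4 and 62.9, 82.0, 57.3 and 53.7 CPM in SAP97-cKO replicates 1 to 4. Each SAP97-cKO library was below each control library, so the labels and the target agree in all 8. Its log2 fold change was -0.86 with a standard error (SE) of 0.12. The quasi-likelihood test of edgeR, adjusted over all genes by the Benjamini-Hochberg method, gave an adjusted p of 0.143. These counts cover the whole gene, and counts for the floxed exon were not analysed here.

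All 9 genes passed the filter on low counts, as did 16251 genes in all. Ptgds and Aldh1a2 were lower in SAP97-cKO at the study's threshold, an FDR under 0.25, and 0 of the 9 were higher. Over all genes tested, 0.283% were called lower and 0.0123% higher at that threshold. The lean to one side depends on the tool: edgeR called 46 lower and 2 higher, and DESeq2 588 lower and 445 higher. These 2 genes were also those of the 9 whose SAP97-cKO libraries all lay below all control libraries, a pattern that 3.47% of all tested genes showed, while 2.78% showed the opposite one. With Crabp2 added, 3 of the 9 had an unadjusted p under 0.05 in edgeR, beside 11.7% of all tested genes. The median log2 fold change was -0.25 over the 9 genes and -0.01 over all genes tested. The estimate was below 0 for 7 of the 9 genes, and for 8 of them without scaling of the libraries, when Rarb changed sign. It was below 0 for 6 of the 9 in limma-voom and for 6 to 8 with single libraries left out. With the level of meningeal genes as a covariate, described below, only 4 of the 9 were below 0 and the median was 0.07. The direction of the set as a whole thus did not hold in that fit, whose covariate itself separates the genotypes.

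**Figure D1:**
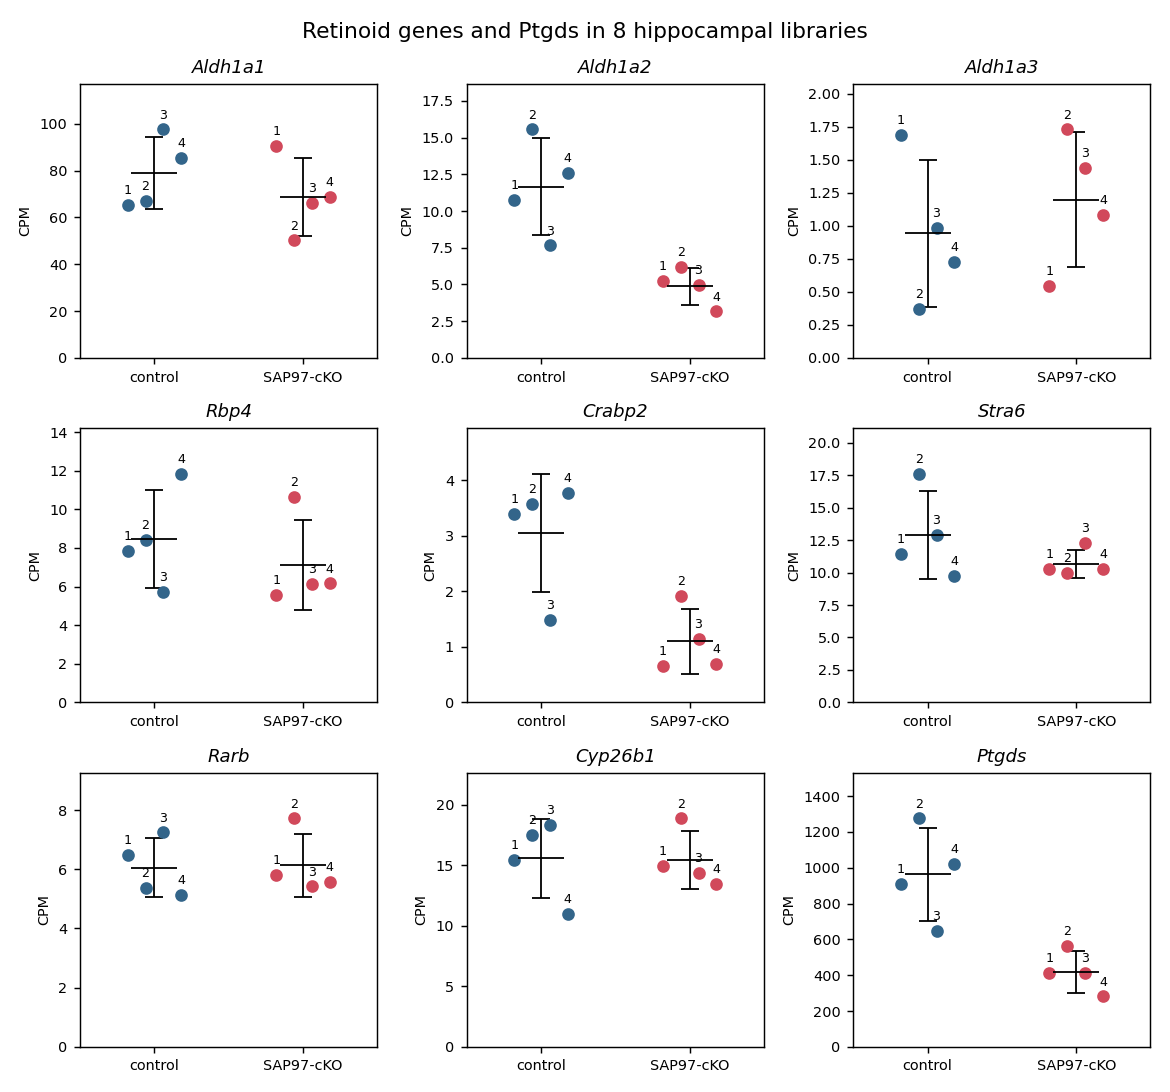
Level of each gene in CPM (vertical axes, linear from 0) in control (blue) and SAP97-cKO (red) libraries; each point is a library with its replicate number, the long bar is the group mean and the whiskers are ± 1 SD (n = 4). Ptgds and Aldh1a2 show no overlap between the groups, and in Crabp2 control replicate 3 lies below SAP97-cKO replicate 2.

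**Figure D2:**
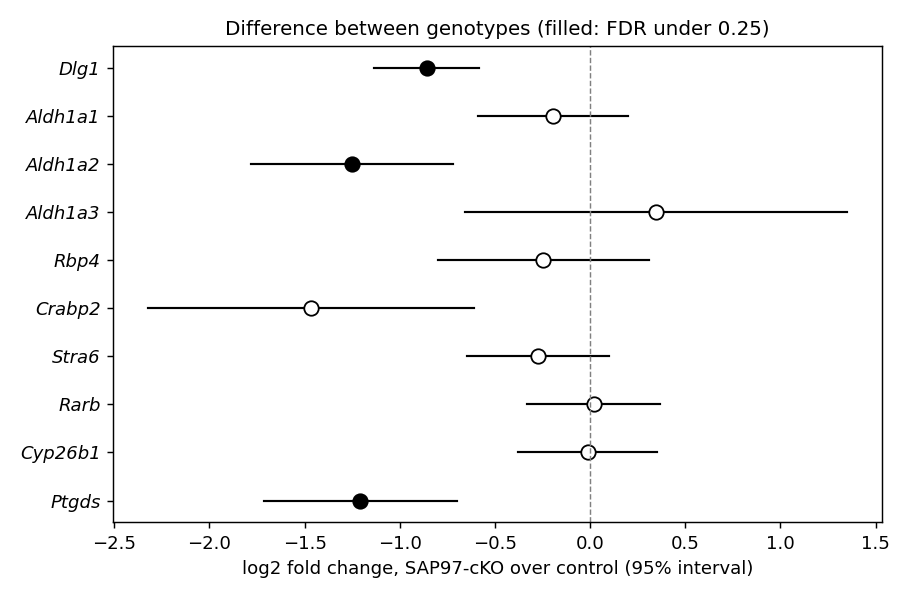
Log2 fold change of Dlg1 and the 9 genes (horizontal axis, SAP97-cKO over control) with the 95% interval from edgeR; filled points have an FDR under 0.25. The intervals of Aldh1a2, Crabp2 and Ptgds lie below 0, and those of the other 6 retinoid genes include 0.

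The genes of retinoic acid synthesis differed in level and in what they did between genotypes. Aldh1a2 (ENSMUSG00000013584) spans chr9:71215789-71296243 in GRCm38, on the plus strand. It had 10.8, 15.6, 7.66 and 12.6 CPM in control replicates 1 to 4, from 403, 584, 295 and 485 reads. In SAP97-cKO replicates 1 to 4 it had 5.23, 6.18, 4.99 and 3.16 CPM, from 192, 232, 184 and 114 reads. The groups did not overlap: the lowest control library, replicate 3, was above the highest SAP97-cKO library, replicate 2. The means were 11.6 ± 3.31 CPM and 4.89 ± 1.26 CPM (SD, n = 4 each), so that SAP97-cKO stood at 42.0% of control. The log2 fold change of Aldh1a2 was -1.25 (SE 0.24, 95% interval -1.78 to -0.72), with an adjusted p of 0.201 from edgeR. In a whole piece of tissue, fewer cells that make a transcript and less of it per cell cannot be told apart.

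Aldh1a1 (ENSMUSG00000053279), the most abundant retinaldehyde dehydrogenase here per length of exon, had 65.4, 67.1, 97.6 and 85.3 CPM in controls and 90.5, 50.2, 66.0 and 68.7 CPM in SAP97-cKO. The ranges overlapped widely, with the lowest value and the second highest both in SAP97-cKO. Its log2 fold change was -0.20 (SE 0.18, 95% interval -0.59 to 0.20; adjusted p = 0.655 from edgeR), and the interval does not reach the estimate of Aldh1a2. Whether the fold changes of these genes differ from each other was not tested. Aldh1a7, a close copy of Aldh1a1 on the same chromosome, had only 4 to 17 reads per library, and how reads that fit both copies were assigned is not stated, so Aldh1a1 is uncertain to that extent. Aldh1a3 (ENSMUSG00000015134) had few reads, with 14 to 63 reads in control libraries and 20 to 65 in SAP97-cKO. Its log2 fold change was 0.35 with a 95% interval of -0.66 to 1.35, which holds changes of moderate size in either direction.

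Transport and binding came next. Crabp2 (ENSMUSG00000004885), which carries retinoic acid in the cytoplasm towards its receptors, had 3.40, 3.57, 1.48 and 3.76 CPM in control replicates 1 to 4. In SAP97-cKO replicates 1 to 4 it had 0.654, 1.92, 1.14 and 0.694 CPM. Control replicate 3 was within the SAP97-cKO range, and the other control libraries were above all SAP97-cKO libraries. The means were 3.05 ± 1.06 and 1.10 ± 0.587 CPM (SD, n = 4 each). With a log2 fold change of -1.47 (SE 0.39, 95% interval -2.32 to -0.61), Crabp2 had the estimate farthest from 0 of the 9 genes, but its adjusted p of 0.316 from edgeR missed the threshold. It rested on 57 to 145 reads per control library and 24 to 72 per SAP97-cKO library.

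Rbp4 (ENSMUSG00000024990), the carrier of retinol outside cells, ranged from 5.71 to 11.8 CPM in controls and from 5.58 to 10.6 CPM in SAP97-cKO. Its log2 fold change was -0.25 (SE 0.25; adjusted p = 0.690 from edgeR). Stra6 (ENSMUSG00000032327), the membrane receptor that takes up retinol from Rbp4, ranged from 9.73 to 17.6 CPM in controls and from 9.96 to 12.3 CPM in SAP97-cKO. The spread among controls, 12.9 ± 3.39 CPM (SD, n = 4), exceeded the whole span of the SAP97-cKO libraries, and the log2 fold change was -0.27 (SE 0.17; adjusted p = 0.526 from edgeR).

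Rarb (ENSMUSG00000017491), a retinoic acid receptor whose own gene is a textbook target of retinoic acid, had 6.47, 5.36, 7.25 and 5.14 CPM in controls and 5.80, 7.72, 5.42 and 5.58 CPM in SAP97-cKO. The groups covered nearly the same range. The log2 fold change was 0.02 (SE 0.16), and its 95% interval of -0.33 to 0.37 leaves out a change of the size estimated for Aldh1a2. Exons of Rarb share 1793 of 5265 bases with those of Top2b on the other strand, a gene with 4253 to 4922 reads per library. The sources used here do not say whether reads were counted by strand, so the level of Rarb is uncertain to that extent.

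Breakdown of retinoic acid was represented by Cyp26b1 (ENSMUSG00000063415), a cytochrome P450 that hydroxylates it. Cyp26b1 had 577, 656, 707 and 423 reads in controls and 550, 709, 530 and 485 reads in SAP97-cKO, with control replicate 4 the lowest of the 8. Its log2 fold change was -0.01 (SE 0.16, 95% interval -0.38 to 0.35). Rarb and Cyp26b1 had intervals that include 0 and lie above the estimate for Aldh1a2, while the interval of Crabp2, -2.32 to -0.61, holds that estimate. Whether retinoic acid signalling differed between genotypes was not tested.

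Ptgds (ENSMUSG00000015090), at chr2:25466709-25470046 on the minus strand, was the most abundant of the 9 genes. It had 909, 1276, 647 and 1020 CPM in control replicates 1 to 4. The SAP97-cKO replicates 1 to 4 had 411, 565, 412 and 281 CPM. Each SAP97-cKO library was below each control library, and the nearest pair was again control replicate 3 and SAP97-cKO replicate 2. The means were 963 ± 260 and 417 ± 116 CPM (SD, n = 4 each), which puts SAP97-cKO at 43.3% of control. Ptgds had a log2 fold change of -1.21 (SE 0.23, 95% interval -1.72 to -0.70), with an adjusted p of 0.201 from edgeR. It is known in brain both as the enzyme of prostaglandin D2 synthesis and as a secreted carrier of small lipophilic molecules.

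The calls of Ptgds and Aldh1a2 depended on single libraries, though their estimates moved little. Both genes missed the threshold in edgeR when control replicate 2 (adjusted p = 0.507) or control replicate 4 (0.302) was left out, and likewise for SAP97-cKO replicates 3 (0.622) and 4 (0.424). Over the 8 fits that each left out a library, the log2 fold change ran from -1.39 to -1.04 for Ptgds and from -1.40 to -1.08 for Aldh1a2, and the adjusted p from 0.121 to 0.622 and from 0.125 to 0.622. Crabp2 passed it when control replicate 1 (adjusted p = 0.206 from edgeR), control replicate 3 (0.211) or SAP97-cKO replicate 2 (0.187) was left out, within a range of 0.187 to 0.695. It also passed with no filter on low counts (0.233). Among the other tools, limma-voom called Ptgds and Aldh1a2, both lower, beside 0.308% of all genes tested. DESeq2 called Ptgds, Aldh1a2 and Crabp2, all lower, beside 6.36% of all genes tested. At an FDR of 0.05 edgeR called 0 of the 9 genes and 0 in the whole table, where 1907 had an unadjusted p under 0.05. At that threshold limma-voom also called 0 genes, and DESeq2 called 156 in all, Ptgds, Aldh1a2 and Crabp2 among them.

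Levels can be set beside each other once divided by length, here the CPM per kilobase of annotated exon. In controls Ptgds had 584 ± 158 CPM per kilobase and Aldh1a1 16.0 ± 3.12 (SD, n = 4). Rbp4 followed with 6.29 ± 1.89 and Aldh1a2 with 5.15 ± 1.46, which did not differ beyond their spread. Cyp26b1 with 2.91 ± 0.615, Crabp2 with 2.31 ± 0.801 and Stra6 with 2.22 ± 0.581 CPM per kilobase came next, above Rarb with 1.15 ± 0.187 and Aldh1a3 with 0.204 ± 0.120. In SAP97-cKO the order of the level changed in the middle: Aldh1a2, at 2.16 ± 0.556 CPM per kilobase, came after Cyp26b1 at 2.88 ± 0.446, and Crabp2, at 0.832 ± 0.444, came after Stra6 at 1.84 ± 0.185 and Rarb at 1.16 ± 0.204. The gene models of Aldh1a1 and Rarb in the table start later, in the direction of transcription, than those of the annotation used for lengths. Their levels per kilobase are therefore approximate.

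Aldh1a2 and Ptgds kept a nearly fixed proportion from library to library. Control replicates 1 to 4 had 1.19, 1.22, 1.18 and 1.23 Aldh1a2 reads per 100 Ptgds reads, and SAP97-cKO replicates 1 to 4 had 1.27, 1.09, 1.21 and 1.12. The highest of these ratios was 1.16 times the lowest, whereas the CPM of Ptgds itself spanned 4.53-fold and that of Aldh1a2 4.92-fold. Over all 8 libraries Aldh1a2 made up 1.18% of the summed reads of both genes, and the exact (Clopper-Pearson) 95% interval of the share held that value in each of the 8. For instance, SAP97-cKO replicate 4, with 114 Aldh1a2 reads, had a share of 1.11% with an interval of 0.918% to 1.33%. Such intervals cover counting error only. The ratio was chosen after its values had been seen and was not tested.

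**Figure D3:**
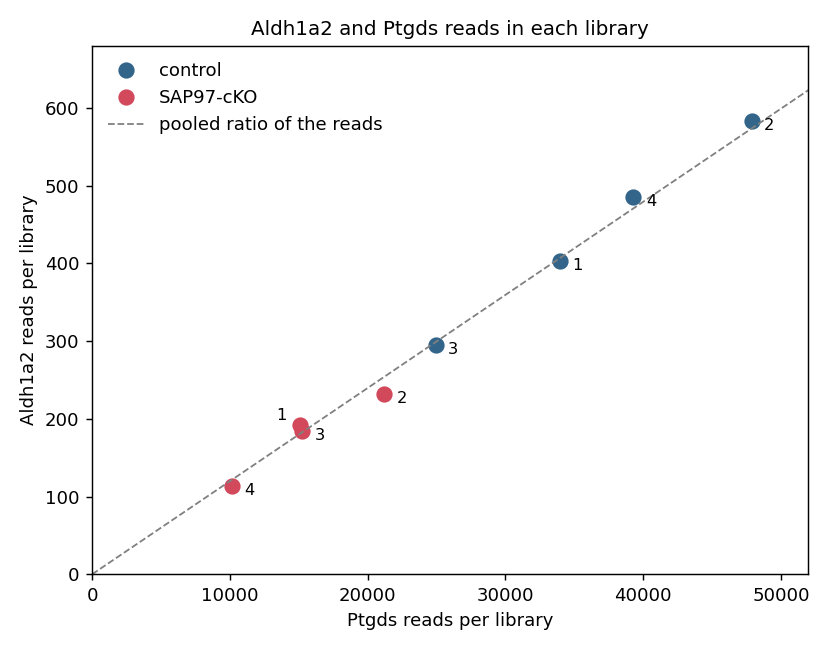
Reads of Aldh1a2 (vertical axis) against reads of Ptgds (horizontal axis) in each control (blue) and SAP97-cKO (red) library, with replicate numbers; the dashed line is the ratio of the pooled reads. All 8 libraries lie close to the line, at 1.09 to 1.27 Aldh1a2 reads per 100 Ptgds reads.

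Other pairs varied more. Crabp2 had 0.159 to 0.374 reads per 100 Ptgds reads, Rbp4 0.658 to 2.19 and Aldh1a1 5.26 to 24.4. Deviations of log2 CPM from the genotype mean, which leave out the difference between genotypes, were compared over the 8 libraries. Those of Aldh1a2 and Ptgds had a Pearson r of 0.985 and a Spearman rho of 0.929, and r was 0.952 without control replicate 3 and SAP97-cKO replicate 4, the libraries farthest from the median in Ptgds. Crabp2 and Ptgds had an r of 0.841 and a rho of 0.857, and r was 0.641 without the same libraries. Rbp4 and Crabp2 had an r of 0.875, Rarb and Cyp26b1 0.745, and Aldh1a1 and Crabp2 -0.825. These are descriptions of 8 libraries that share depth and dissection.

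The same measure was used to find, among 14065 genes with at least 1 CPM on average, the genes whose deviations were most like those of each member. For Ptgds they were Aldh1a2 (r = 0.985), Efemp1 (0.980) and Pawr (0.973), and for Aldh1a2 they were Ptgds (0.985), Efemp1 (0.982) and Asgr1 (0.979). Of these, Efemp1 had a log2 fold change of -0.74, Asgr1 of -1.41 and Pawr of -0.31. The genes most like Crabp2 were Megf6 (0.979), 1500011B03Rik (0.978) and Lingo2 (0.972), whose log2 fold changes of 0.18, -0.01 and 0.31 were far from that of Crabp2. Aldh1a1 was most like Ddx41 (0.982), Tmem117 (0.970) and A330008L17Rik (0.954), and Aldh1a3 most like Cwc25 (0.984), Fam185a (0.983) and 4933402D24Rik (0.967). Rbp4 was closest to Nanos1 (0.982), Pdk1 (0.976) and Npas2 (0.975), and Stra6 to Epb41l5 (0.985), Slc29a4 (0.964) and Slc46a1 (0.960). Rarb went with Gm9899 (0.990), Senp2 (0.963) and 4930523C07Rik (0.959), and Cyp26b1 with Ablim1 (0.984), Hs6st1 (0.984) and Slc22a23 (0.978). Each value is the top of 14065, so an r above 0.95 was reached for every member, also for those at low counts.

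The rest of the pathway was taken from 6 lists with 64 further genes, of which 46 had enough reads to be tested. At an FDR under 0.25 edgeR called 1 of the 46, Cyp1b1, and at an unadjusted p under 0.05 there were 6 lower and 1 higher, or 15.2% of the 46, near the 11.7% of all genes tested. Limma-voom also called only Cyp1b1. DESeq2 called 6 genes, among them Cyp1b1, Tgm2, Rarres2 and Pla2g4a, which were lower, and Rarres1, which was higher; in all it called 6.36% of the genes tested. Whether the 46 differ from the rest in these shares was not tested. The median log2 fold change was -0.06 over the 46, near the -0.01 of all genes tested. Cyp1b1, a cytochrome P450 that can oxidize retinol, had 325, 335, 256 and 233 reads in control replicates 1 to 4 and 182, 153, 147 and 110 reads in SAP97-cKO replicates 1 to 4. The groups did not overlap, and the log2 fold change was -0.92 (SE 0.18; adjusted p = 0.215 from edgeR). The call of Cyp1b1 was lost in edgeR without control replicate 2 (adjusted p = 0.557) and without SAP97-cKO replicate 2 (0.306), 3 (0.646) or 4 (0.481), at log2 fold changes of -0.92 to -0.80. It was also lost with the meningeal covariate (log2 fold change -0.46, SE 0.31), the choroid plexus covariate (-0.80, SE 0.18) and the oligodendrocyte covariate (-0.83, SE 0.22).

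Among the 14 tested genes of retinoid synthesis and storage, 12 had estimates below 0 and the median log2 fold change was -0.14. The most abundant, Adh5, an alcohol dehydrogenase of broad substrate range, had 59.6 CPM in control and 52.7 CPM in SAP97-cKO (log2 fold change -0.18, unadjusted p = 0.0436, adjusted p = 0.414 from edgeR). The 5 tested genes of transport and binding had a median log2 fold change of -0.13, with 0 called by edgeR or limma-voom, 1 called by DESeq2 and 1 at an unadjusted p under 0.05 in edgeR. The most abundant gene of that list was Ttr, which carries Rbp4 in blood and cerebrospinal fluid and is described with the choroid plexus genes.

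The 9 receptors and cofactors had a median log2 fold change of 0.14, with 0 called in edgeR, limma-voom or DESeq2 and 0 at an unadjusted p under 0.05 in edgeR. Ncor1, a corepressor and the most abundant of them, had 272 CPM in control and 304 CPM in SAP97-cKO. Of the breakdown list only Cyp26a1 was tested, with 4 to 36 reads per library and a log2 fold change of 1.07 (SE 0.61; adjusted p = 0.501 from edgeR).

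Genes known to be induced by retinoic acid went in both directions. Of 8 tested, 4 had estimates below 0 and 4 above, with a median log2 fold change of -0.12 and 0 called by edgeR. At an unadjusted p under 0.05 in edgeR there were 3 (37.5%), beside 11.7% of all genes tested. DESeq2 called 3 (37.5%), beside 6.36% of all genes. Tgm2, a transglutaminase, was at -0.52 (SE 0.16; adjusted p = 0.338 from edgeR), and Rarres2, which encodes the chemoattractant chemerin, at -0.53 (SE 0.18; adjusted p = 0.361 from edgeR). Rarres1 had 50, 51, 37 and 65 reads in controls and 94, 69, 83 and 76 in SAP97-cKO, so its groups did not overlap, at a log2 fold change of 0.71 (SE 0.21; adjusted p = 0.332 from edgeR). The most abundant of the list, Meis2, a homeodomain transcription factor, was at 0.11 (SE 0.18).

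Around Ptgds, 9 further genes of the prostaglandin D2 path were tested and 0 were called by edgeR, with a median log2 fold change of -0.07. At an unadjusted p under 0.05 in edgeR there was 1 (11.1%), beside 11.7% of all genes tested. DESeq2 called 1 (11.1%), beside 6.36% of all genes. Pla2g4a, the cytosolic phospholipase that releases arachidonic acid, had 159, 198, 206 and 189 reads in controls and 136, 94, 131 and 77 in SAP97-cKO. Its groups did not overlap, and the log2 fold change was -0.73 (SE 0.19; adjusted p = 0.316 from edgeR). Hpgds, the other prostaglandin D synthase, was at 0.24 (SE 0.17), and Cbr1, a carbonyl reductase and the most abundant of the list, had 56.4 CPM in control and 55.1 CPM in SAP97-cKO.

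Marker genes of the cell types that a hippocampal dissection can hold were set beside these results. The marker lists were chosen with earlier results of these data known, so their shares are descriptions and give no independent support. All 20 genes of the meningeal fibroblast list were tested and had estimates below 0, with a median log2 fold change of -0.94. Of them, 6 were called lower by edgeR (Col1a2, Col3a1, Slc6a13, Slc22a6, Ogn and Mgp), 17 had an unadjusted p under 0.05, and 12 showed no overlap between groups. Over all genes tested, 0.283% were called lower, 11.7% had such a p in either direction and 3.47% lay lower without overlap. The paper's own list of differing genes also holds the 6 called here. Limma-voom called the same 6 genes, and DESeq2 called 16 of the 20, 10 of them at an FDR of 0.05, beside 6.36% of all genes at 0.25. Their summed level was 414, 745, 445 and 392 CPM in control replicates 1 to 4 and 251, 392, 324 and 218 CPM in SAP97-cKO replicates 1 to 4. Igf2, the most abundant, made up 31.8% of that sum and is also made by choroid plexus, and 0 of the markers were at 0 in all libraries. The estimates were not uniform: Dcn was at -0.01 (SE 0.42), with 55.8 CPM in control and 55.5 CPM in SAP97-cKO. Igf2 was at -0.78 (SE 0.41) and Igfbp2 at -0.68 (SE 0.38), each with overlap between groups.

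Within genotypes, the mean deviation of the meningeal list had an r of 0.930 (rho 0.810) with Ptgds and of 0.895 (rho 0.762) with Aldh1a2 over 8 libraries. With the mean log2 CPM of the list as a covariate in edgeR, the log2 fold change was -0.21 (SE 0.20) for Ptgds, -0.26 (SE 0.26) for Aldh1a2 and -0.20 (SE 0.52) for Crabp2. In that fit 0 of the 9 genes and 0 genes in all were called, while 682 had an unadjusted p under 0.05. The list itself differed between the genotypes, so the covariate shares much of its variation with genotype. The covariate was 3.33 to 4.07 in control libraries and 2.01 to 3.10 in SAP97-cKO libraries, without overlap. That fit therefore cannot divide a difference between genotype and the list. The part of the meningeal genes in the differences of Ptgds, Aldh1a2 and Crabp2 was not tested.

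**Figure D4:**
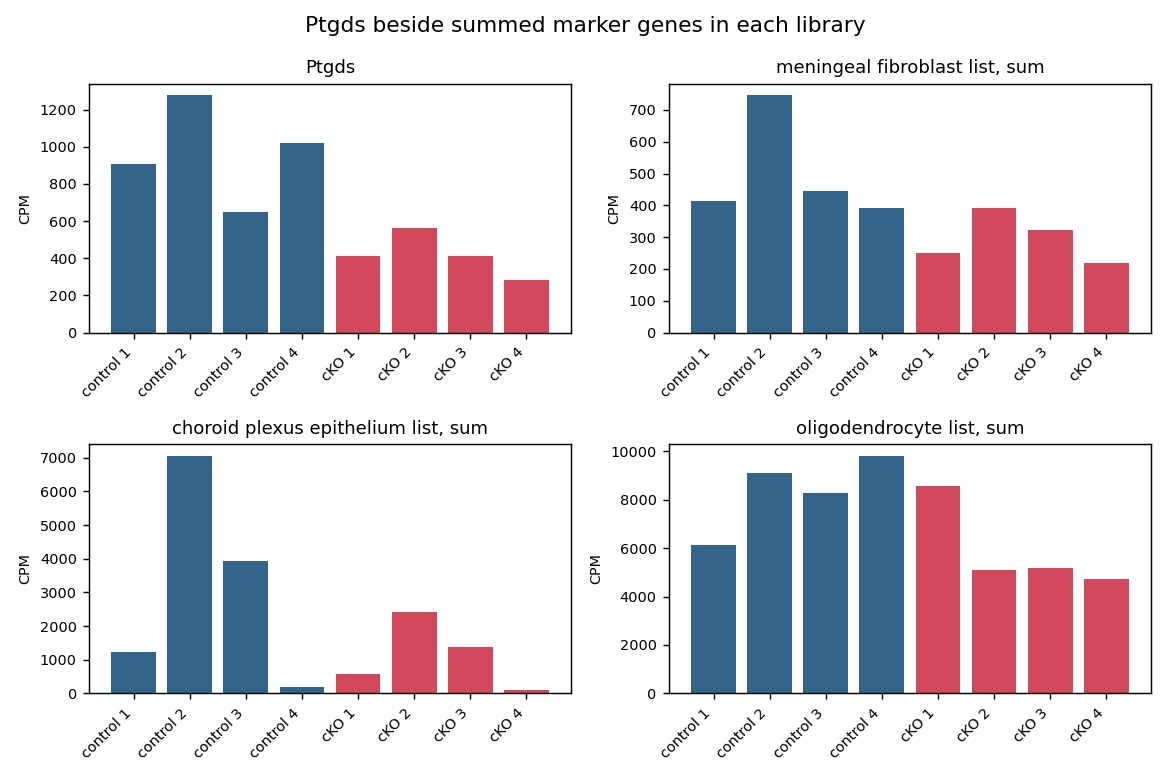
Level of Ptgds and summed level of 3 marker lists in CPM (vertical axes, linear from 0) in each control (blue) and SAP97-cKO (red) library. Choroid plexus genes and Ptgds are both highest in replicate 2 of each genotype; choroid plexus genes are lowest in replicate 4 of each (184 and 106 CPM), where Ptgds has 1020 and 281 CPM.

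Choroid plexus genes varied far more than Ptgds did. All 15 tested genes of the list had estimates below 0, with a median log2 fold change of -1.48 and 0 calls by edgeR. At an unadjusted p under 0.05 in edgeR there was 1 gene, Lmx1a (6.67%), beside 11.7% of all genes tested. DESeq2 called Lmx1a alone in the list (6.67%), beside 6.36% of all genes. The summed level of the list was 1242, 7042, 3934 and 184 CPM in control replicates 1 to 4 and 588, 2424, 1391 and 106 CPM in SAP97-cKO replicates 1 to 4, of which Ttr made up 87.3%. Ttr spanned 126 to 6211 CPM among controls, and 57.7 to 2131 CPM in SAP97-cKO, and control replicates 2 and 3 were above every SAP97-cKO library while the other controls were within their range. Within genotypes, the mean deviation of this list had an r of 0.436 (rho 0.381) with Ptgds over 8 libraries. Replicate 2 was highest in both in each genotype and SAP97-cKO replicate 4 lowest in both, whereas control replicate 4 had the lowest choroid plexus sum of the controls and the second highest Ptgds level. With this list as a covariate the log2 fold change of Ptgds was -1.11 (SE 0.21) and that of Aldh1a2 -1.16 (SE 0.24), with adjusted p of 0.265 and 0.318 from edgeR, so both missed the threshold at nearly the same estimate.

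Oligodendrocyte genes were also lower on average in SAP97-cKO. All 12 had estimates below 0, the median log2 fold change was -0.49, 0 were called by edgeR and 8 (66.7%) had an unadjusted p under 0.05, beside 11.7% of all genes, while DESeq2 called 5 (41.7%), beside 6.36% of all genes. The summed level was 6130, 9096, 8285 and 9790 CPM in controls and 8571, 5078, 5189 and 4736 CPM in SAP97-cKO, with Mbp the most abundant at 38.1% of the sum. Within genotypes the list had an r of 0.258 (rho 0.238) with Ptgds. SAP97-cKO replicate 1 had an oligodendrocyte sum as high as the controls and a Ptgds level of 411 CPM, below all controls. Added after the data had been seen, a fit with this list as covariate gave Ptgds a log2 fold change of -1.06 (SE 0.32) and Aldh1a2 -1.03 (SE 0.31), each with an adjusted p of 0.999 from edgeR, and 0 genes in all were called with 683 at an unadjusted p under 0.05. The part of choroid plexus and oligodendrocyte genes in the differences was not tested, and the values of single libraries given for both lists are descriptions.

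The other lists moved less, and 0 of their genes were called by edgeR. The median log2 fold change was -0.24 for pericytes and smooth muscle (most abundant Rgs5), -0.19 for endothelium (Flt1), 0.03 for microglia, 0.03 for astrocytes (Slc1a2) and 0.12 for hippocampal neurons (Camk2a). Camk2a, a kinase of excitatory forebrain neurons, had 3954 CPM in control and 4800 CPM in SAP97-cKO, so transcripts of such neurons were abundant in libraries of both genotypes. At an unadjusted p under 0.05 in edgeR, 3 of 8 pericyte and smooth muscle genes and 1 of 9 endothelial genes were lower, 2 of 7 astrocyte and 2 of 10 neuron genes were higher, and 0 of 7 microglia genes differed, beside 11.7% of all genes tested. DESeq2 called 3, 1, 2, 1 and 0 genes of the pericyte, endothelial, neuron, astrocyte and microglia lists at an FDR of 0.25, beside 6.36% of all genes.

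Sequences upstream of the genes were examined for the letters that retinoic acid receptors are known to bind. The RefSeq promoter table (GRCm38.p6), with 250 bases before and 50 after each start, held 12 windows for 7 of the 9 genes; Crabp2 and Aldh1a3 had no entry. The core word AGGTCA, the related word AGTTCA, the related word GGTTCA and the further related word GGGTCA were searched on both strands, singly and as direct repeats with a gap of 5, 2 or 1 bases; a repeat always holds a pair of the single words. At least 1 core was in 4 of the 12 windows, beside 43.7% of all 32851 promoters. The repeat with a gap of 5 was in the window of Rarb alone among these genes and in 32 of all promoters (0.0974%), and the repeats with a gap of 2 or 1, held by 0.268% and 0.222% of all promoters, were in none of the 12.

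Sequence is shown for Ptgds and Aldh1a2, which moved together, 5′ to 3′ on the strand of the gene and without any annotated exon. Neither stretch holds a core word, so there are no capitals. The RefSeq start of Ptgds lies inside the gene span given above, whose models begin farther upstream: all 250 bases before it are in the span, and 93 of them are in an exon. The other 157 bases, at chr2:25469843-25469999 (minus strand), are in an intron of the longer model and are shown. The 250 bases before Aldh1a2, at chr9:71215539-71215788 (plus strand), end where the gene span begins and touch no exon. All 250 bases before the RefSeq start of Rarb, at chr14:16575477-16575726 (minus strand), are in exons of longer models and are not shown beyond the repeat.
Ptgds: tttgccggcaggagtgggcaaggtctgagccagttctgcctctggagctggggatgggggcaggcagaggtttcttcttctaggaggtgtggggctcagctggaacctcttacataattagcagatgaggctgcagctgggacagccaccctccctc
Aldh1a2: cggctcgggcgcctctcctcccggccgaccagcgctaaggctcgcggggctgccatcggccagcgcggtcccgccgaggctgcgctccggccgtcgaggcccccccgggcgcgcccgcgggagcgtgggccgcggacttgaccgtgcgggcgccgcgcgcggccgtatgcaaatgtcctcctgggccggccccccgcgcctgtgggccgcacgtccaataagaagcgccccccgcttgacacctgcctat

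In the Rarb window, shown because the level of Rarb did not follow those genes, the repeat is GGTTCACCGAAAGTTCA, from 53 to 37 bases before the start (chr14:16575513-16575529), the element through which retinoic acid receptors are known to act on this gene. A further core, GGGTCA, begins 83 bases before the start. The windows of Ptgds and Aldh1a2 held 0 cores. A single core was found in a window of Aldh1a1, of Rbp4 and of Stra6, and that of Stra6 lay after the start. A match is a description of the letters, and the absence of these words from a window of this length says only that they are not in it.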

How the data were processed

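Per the methods and the submitters' processing notes, the authors used STAR 2.5.3a for alignment to mm10 (GRCm38.p5), took out ribosomal and mitochondrial reads, drew equal numbers of reads from the libraries and counted them by Ensembl gene. The deposited counts are whole numbers, and 15 mitochondrial genes still have counts among them. The table also holds the authors' log2 fold changes, p-values and q-values between genotypes, which were not used.

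Genes were kept with filterByExpr (minimum count 10, minimum total 15), scaled by TMM and tested between genotypes in R 4.3.3 by edgeR 4.0.16 (quasi-likelihood). P-values of 16251 genes were adjusted by the Benjamini-Hochberg method, with a threshold at an FDR of 0.25. The filter removed 9583 genes, and the tested ones held 99.9% of the counts. The biological coefficient of variation was 0.152. The standard error is the size of the log2 fold change divided by the square root of F. Lengths and coordinates came from GENCODE M21 for GRCm38, which held 25696 of the 25834 gene identifiers. Likeness used log2(CPM + 0.1). No library repeated another (chi-square per gene of library pairs 9.68 to 72.6, above sampling noise). The test was run on simulated data first. Plots used matplotlib 3.10.9.

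Named genes are the 9 members, Dlg1, each pathway gene past the FDR of 0.25 or with an unadjusted p under 0.05, the most abundant gene of each list, and the 3 tested genes most like each member. Some genes that this rule takes in are not reported here. Hpgds, Cyp26a1, Aldh1a7, Lmx1a, Aqp4, Top2b, Dcn, Igfbp2 and the called meningeal genes were added after their values had been seen. The 6 pathway and 8 cell type lists were written from general knowledge. Members and lists were chosen with earlier results of these data known. Stra8 of the induced genes was not in the table.

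The alternatives were limma-voom (limma 3.58.1), DESeq2 1.42.0, DESeq2 size factors in edgeR, no scaling, no filter, 10 counts required of each library, blocks by replicate number, covariates from the meningeal fibroblast or the choroid plexus list, a threshold of 0.05, and each library left out. An oligodendrocyte covariate and the omission of both libraries numbered 2 were added after the data had been seen.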

Additional observations from a re-analysis of the deposited data

Results flagged for a closer look

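In 4 of 18 sets of 4 libraries (9 genes in each genotype), the highest or lowest library stood apart by Dixon's criterion for 4 samples, which compares the gap to the nearest library with the whole range. Chance flags about 1 in 20 such sets. Rbp4 had 10.6 CPM in SAP97-cKO replicate 2, above 5.58 to 6.16 CPM in the others of that genotype. Crabp2 had 1.48 CPM in control replicate 3, below 3.40 to 3.76 CPM in the other controls. Stra6 had 12.3 CPM in SAP97-cKO replicate 3, above 9.96 to 10.3 CPM in the others. Rarb had 7.72 CPM in SAP97-cKO replicate 2, above 5.42 to 5.80 CPM in the others. Ptgds and Aldh1a2 had no such library in either genotype.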

How the results depend on the processing

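The number of genes called, 48 in edgeR, was 50 in limma-voom (43 shared), 1033 in DESeq2 (47 shared), 95 without scaling, 104 without the filter, and 35 with DESeq2 size factors or with 10 counts in every library. It was 0 at an FDR of 0.05 and 0 with the meningeal fibroblast covariate, 16 with the choroid plexus covariate and 0 with the oligodendrocyte covariate, and 2 without both libraries numbered 2, where 1409 had an unadjusted p under 0.05. Leaving out single libraries gave 0 to 1675 genes. The count was 0 when control replicate 2, SAP97-cKO replicate 3 or SAP97-cKO replicate 4 was dropped (1403, 1259 and 1167 genes at an unadjusted p under 0.05 in edgeR), 1675 when control replicate 1 was dropped (960 lower, 715 higher), and 711 for SAP97-cKO replicate 1.

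Of the 9 retinoid and Ptgds genes 2 were called. The number was 0 at an FDR of 0.05, with the meningeal fibroblast, choroid plexus or oligodendrocyte covariate, or without both libraries numbered 2. It was 3 in DESeq2 and without the filter, where Crabp2 was added, and it ran from 0 to 3 with single libraries left out. The genes without overlap between groups numbered 2 or 3 in all settings that apply. Over the 20 alternatives no call changed sign. Ptgds ran from -1.39 to -0.21, Aldh1a2 from -1.40 to -0.26 and Crabp2 from -1.88 to -0.20 on the log2 scale, each nearest 0 with the meningeal fibroblast covariate. Adjusted p ran from 4.69e-05 (DESeq2) to 0.999 for Ptgds. The cause of these shifts was not tested.

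The replicate numbers were not taken to pair the samples, since no label ties same-numbered mice and not every pair deviated together: r was -0.106, 0.242, 0.112 and 0.297 for numbers 1 to 4. As a hint from the data, 5 of 8 libraries were closest to their own number, and the choroid plexus sums put the numbers in the order 2, 3, 1, 4 in both genotypes, so shared handling is not excluded. With the number as a block edgeR called 256 genes and 3 of the 9, Crabp2 (adjusted p = 0.228) beside Ptgds (0.0457) and Aldh1a2 (0.0692), so Ptgds then passed an FDR of 0.05. Cyp1b1 also passed an FDR of 0.05 in that fit (adjusted p = 0.0457 from edgeR).

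Aldh1a3 (14 to 65 reads per library) and Crabp2 (24 to 145 reads) had few reads.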

Other observations

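Of the 72 correlations between the 9 genes and the 8 cell type lists (deviations from the genotype means over 8 libraries), a few high ones lay outside the meningeal list. Cyp26b1 had an r of 0.891 and Stra6 of 0.714 with the choroid plexus list, Aldh1a3 of -0.817 with the oligodendrocyte list, Rbp4 of -0.796 with the hippocampal neuron list and Aldh1a1 of 0.742 with the astrocyte list. With the choroid plexus list as a covariate the log2 fold change of Cyp26b1 was 0.18 (SE 0.11) and that of Stra6 -0.10 (SE 0.15). These values were picked from the 72 after they had been seen, and none was tested.

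Ptgds divided by the summed meningeal genes gave 2.20, 1.71, 1.45 and 2.60 in control replicates 1 to 4 and 1.64, 1.44, 1.27 and 1.29 in SAP97-cKO replicates 1 to 4. The groups overlapped on this ratio of CPM through SAP97-cKO replicate 1, which lay above control replicate 3. The other SAP97-cKO replicates lay below every control, and the ratio was not tested. In the astrocyte list Aqp4, the water channel of astrocyte endfeet, was higher in SAP97-cKO without overlap between groups, with 233 CPM in control and 314 CPM in SAP97-cKO (log2 fold change 0.43, SE 0.11; adjusted p = 0.316 from edgeR).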
